A study of Mus musculus with 8 samples.

Results

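Collagens are the structural proteins of the extracellular matrix, and fibroblasts of the meninges, the membranes that wrap the brain, are among their main makers at the surface of the cortex. The 54 genes described here are every row whose symbol has the form of a collagen chain (44 genes) and 10 genes known as markers or products of meningeal fibroblasts (Dcn, Lum, Ogn, Mgp, Aldh1a2, Crabp2, Igf2, Foxc1, Slc22a6 and Slc6a20a), out of 24060 gene rows in all. The rule goes by gene name. Of the 54, 52 passed a filter on low values and were tested (42 collagens and all 10 meningeal genes), and Col4a3 and Col6a6 did not pass it.

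RNA was sequenced from the cortex of 4 mice, numbered 579, 580, 581 and 595, with 2 libraries from each animal. The HA IP library holds RNA bound to ribosomes pulled down through a hemagglutinin (HA) tag, and the input library holds RNA of the cleared lysate before the pull-down (4 libraries of each kind). All 4 animals carried the same alleles, labelled Aldh1l1-creERT2 hemi; Ribotag het, and were about 80 days old; both sexes were used and the labels do not say which animal was which. The creERT2 transgene makes a tamoxifen-dependent Cre recombinase under control of Aldh1l1, an astrocyte gene, and the Ribotag allele adds the HA tag to a ribosomal protein in cells where Cre has acted. HA IP RNA is thus selected for cells with Cre activity and for RNA on ribosomes, and a pull-down from mice without Cre is not analysed here. Library totals ran from 33834388 fragments (HA IP, animal 595) to 53625125 fragments (input, animal 595).

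In background terms, collagen chains assemble into trimers inside the endoplasmic reticulum, are secreted, trimmed and crosslinked, and are sorted into classes by the structures they build. Fibrillar chains form banded fibres, collagen IV forms the sheet of basement membranes, collagen VI forms beaded filaments, FACIT chains decorate fibres, and transmembrane chains stay at the cell surface. At the brain surface, fibroblasts of the pia and arachnoid face the end-feet of astrocytes across a basement membrane. Those fibroblasts are known as makers of retinoic acid, of fibre-binding proteoglycans and of transporters that handle solutes of the cerebrospinal fluid.

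The HA IP library of animal 595 was most often the highest for these genes. It had the highest FPKM (fragment numbers scaled for the length of the gene and the size of the library) of the 4 HA IP libraries for all 10 meningeal genes and for 30 of the 42 tested collagens, against 31.3% of the 15609 genes tested. The same library had the fewest fragments of all 8, while the input library of the same animal had the most; the part of depth in this pattern was not tested. For some meningeal genes and collagens the fit without animal 595 is therefore given too. For single genes of the related lists it is not given. In bulk libraries such as these, fewer cells of a type and less RNA per cell cannot be told apart.

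As sequence context, the 120 bases just before the RefSeq gene start are shown for 4 of the 10 meningeal genes and for Col16a1. All 10 meningeal genes were highest in HA IP of animal 595, so this did not pick the 4. Col16a1 is a collagen that was high in every HA IP library. The windows are from RefSeq with build GRCm38.p6, read 5′ to 3′ on the strand of the gene, which is the plus strand for all 5. They lie at chr9:71215669-71215788 (Aldh1a2), chr19:8617876-8617995 (Slc22a6), chr13:31806526-31806645 (Foxc1), chr13:49607895-49608014 (Ogn) and chr4:130047697-130047816 (Col16a1). Capitals mark matches, on either strand, to any of 5 motifs. The TATA box was searched with the letters TATAAA, and the GC box with the letters GGGCGG. The CCAAT box was searched with the letters of its name, the half-site of nuclear factor I with TTGGC, and the core of forkhead sites with GTAAACA. Matches to CCAAT and to the half-site can overlap. The RefSeq start need not be the start used in cortex.
Aldh1a2: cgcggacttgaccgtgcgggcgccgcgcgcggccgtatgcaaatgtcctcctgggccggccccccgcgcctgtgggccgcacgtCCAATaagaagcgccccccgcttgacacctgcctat
Slc22a6: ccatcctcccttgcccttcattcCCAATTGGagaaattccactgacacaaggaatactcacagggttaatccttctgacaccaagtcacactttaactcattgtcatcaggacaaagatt
Foxc1: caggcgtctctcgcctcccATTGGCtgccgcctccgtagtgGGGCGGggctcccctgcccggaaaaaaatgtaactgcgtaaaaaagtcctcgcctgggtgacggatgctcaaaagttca
Ogn: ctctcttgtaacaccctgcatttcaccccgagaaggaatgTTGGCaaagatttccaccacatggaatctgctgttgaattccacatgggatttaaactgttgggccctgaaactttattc
Col16a1: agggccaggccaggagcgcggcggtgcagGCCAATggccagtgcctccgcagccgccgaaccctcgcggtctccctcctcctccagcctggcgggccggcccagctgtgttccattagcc
The CCAAT box lay 36 bases before the start of Aldh1a2. Slc22a6 had overlapping matches on both strands, beginning 97 and 94 bases before its start. Foxc1 had a CCAAT box on the minus strand 101 bases before its start, overlapping a nuclear factor I half-site, and a GC box at 79 bases. Ogn had a nuclear factor I half-site at 80 bases and no CCAAT box in this window. Col16a1 had a CCAAT box at 90 bases that overlaps the half-site on the minus strand. Windows of Slc6a20a, Igf2 and Col9a1 were also searched and are not shown. That of Slc6a20a held only a GC box, on the minus strand at 119 bases, and those of Igf2 and Col9a1 held no match. Over all 32851 windows of this length, 21.3% held a CCAAT box, 24.4% the nuclear factor I half-site, 26.5% a GC box, 6.34% a TATA box and 1.36% the forkhead core. Of the 41 members with a window, 9 held a CCAAT box, 9 the nuclear factor I half-site, 21 a GC box, 3 a TATA box and 0 the forkhead core. A member was counted where any of its windows matched (47 windows for the 41), so these counts are not per window. The counted windows come from the RefSeq promoter set and need not be those shown. These are matches of letters only.

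Fold changes below are log2 HA IP over input from limma, with the animal as a block, after TMM scaling (a scaling that sets the bulk of genes to equal levels in all libraries) and with a pseudocount of 0.1 FPKM. A gene is called where the Benjamini-Hochberg adjusted p over the 15609 genes is under 0.05. TMM scaling raised log2 ratios by 0.84, averaged over animals and before the pseudocount, relative to the deposited values. The median log2 fold change of all genes was 0.01 after TMM scaling and -0.75 on the deposited scale, and calls of members that differ between the scales are named. FPKM values are as deposited and are given in the order of animals 579, 580, 581 and 595.

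The 10 meningeal fibroblast genes did not move as a block. Aldh1a2 and Crabp2, of the retinoic acid pathway, were called higher in HA IP. Mgp, Lum and Dcn, all secreted into the matrix, were called lower, and 5 genes, the proteoglycan Ogn among them, did not pass the test. That is 50% of the 10 called, against 85.3% of all genes tested (43.0% higher and 42.3% lower). Their median log2 fold change was -0.39. On the deposited scale 0 of the 10 were called higher and 6 lower, where 24.3% of all genes were higher and 62.8% lower (87.0% called). The 6 were Mgp, Lum, Dcn, Foxc1, Igf2 (-1.29, adjusted p = 0.018) and Slc6a20a (-1.12, adjusted p = 0.025).

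Aldh1a2 makes retinoic acid from retinaldehyde. It had 3.73, 9.65, 10.6 and 17.2 FPKM in HA IP, against 6.79, 5.28, 12.04 and 4.38 FPKM in input. The groups overlapped, with animal 579 lowest in HA IP and animal 595 highest there and lowest in input. Its log2 fold change was 1.27 (SE 0.39, adjusted p = 0.017), and on the deposited scale it was 0.44 (adjusted p = 0.34). Crabp2, which binds retinoic acid inside cells, had 2.79, 8.03, 4.40 and 13.9 FPKM in HA IP, against 4.64, 3.78, 5.89 and 3.70 FPKM in input. Here too animal 595 was highest in HA IP and lowest in input, and the groups overlapped. The log2 fold change of Crabp2 was 1.28 (SE 0.40, adjusted p = 0.018), against 0.45 on the deposited scale (adjusted p = 0.33). Neither call held in the limma fit without animal 580, where the log2 fold changes were 1.12 for Aldh1a2 and 1.05 for Crabp2. Without animal 595 Crabp2 was at 0.82 and no longer passed, while Aldh1a2 was at 0.79 and did.

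Slc22a6 and Slc6a20a encode solute carriers for organic anions and for imino acids such as proline. Slc22a6 had 1.18, 3.90, 1.103 and 7.38 FPKM in HA IP, against 3.38, 2.78, 1.95 and 2.93 FPKM in input. Slc6a20a had 1.53, 4.17, 1.03 and 6.51 FPKM in HA IP, against 6.67, 7.81, 4.10 and 5.11 FPKM in input. In both genes animals 580 and 595 were high and animals 579 and 581 low in HA IP, and the range of HA IP spanned or overlapped that of input. The log2 fold change was 0.70 for Slc22a6 (SE 0.41, adjusted p = 0.14) and -0.31 for Slc6a20a (SE 0.36, adjusted p = 0.44), so neither passed.

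Ogn (osteoglycin), a small leucine-rich proteoglycan, had 1.08, 3.52, 0.721 and 9.22 FPKM in HA IP, against 5.74, 4.89, 2.56 and 6.06 FPKM in input. Its HA IP values spanned the whole range of input, resting on 82 to 790 fragments in HA IP, against 240 to 823 in input, and its log2 fold change was -0.16 (SE 0.42, adjusted p = 0.73). Igf2, a growth factor, had 1.81, 6.25, 1.92 and 10.4 FPKM in HA IP, against 11.5, 11.3, 7.15 and 9.57 FPKM in input. Animal 595 alone lay within the input values, and the log2 fold change was -0.47 (SE 0.38, adjusted p = 0.28). Foxc1, a forkhead transcription factor needed for meningeal development, had 0.351, 0.814, 0.396 and 1.91 FPKM in HA IP, against 2.34, 2.29, 2.46 and 2.25 FPKM in input. Its groups did not overlap on the deposited scale, and its log2 fold change was -0.84 (SE 0.35, adjusted p = 0.057), or -1.60 on the deposited scale (adjusted p = 0.0043).

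Dcn (decorin) and Lum (lumican) are proteoglycans that bind collagen fibres. Dcn had 0.849, 1.91, 0.942 and 3.78 FPKM in HA IP, against 7.59, 5.56, 5.77 and 6.32 FPKM in input. Lum had 0.0951, 0.239, 0.0752 and 0.414 FPKM in HA IP, against 0.881, 1.04, 1.08 and 1.01 FPKM in input. In both, all HA IP libraries were below all input libraries, and animal 595 was the nearest to input. The log2 fold change was -1.12 for Dcn (SE 0.34, adjusted p = 0.015) and -1.34 for Lum (SE 0.28, adjusted p = 0.0026). The Dcn call was lost in limma without animal 579 (-0.77) and without animal 581 (-0.93).

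Mgp encodes matrix Gla protein, an inhibitor of calcification. It had 1.58, 1.93, 2.81 and 3.13 FPKM in HA IP, against 29.7, 35.0, 44.9 and 27.5 FPKM in input. It was the meningeal gene with the largest fall and the smallest spread among HA IP libraries, with a log2 fold change of -3.00 (SE 0.16, adjusted p = 1.1e-06). Over the 10 genes, 4 had HA IP values that lay entirely below input and 0 entirely above, against 59.0% and 22.0% of all genes tested.

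**Figure D1:**
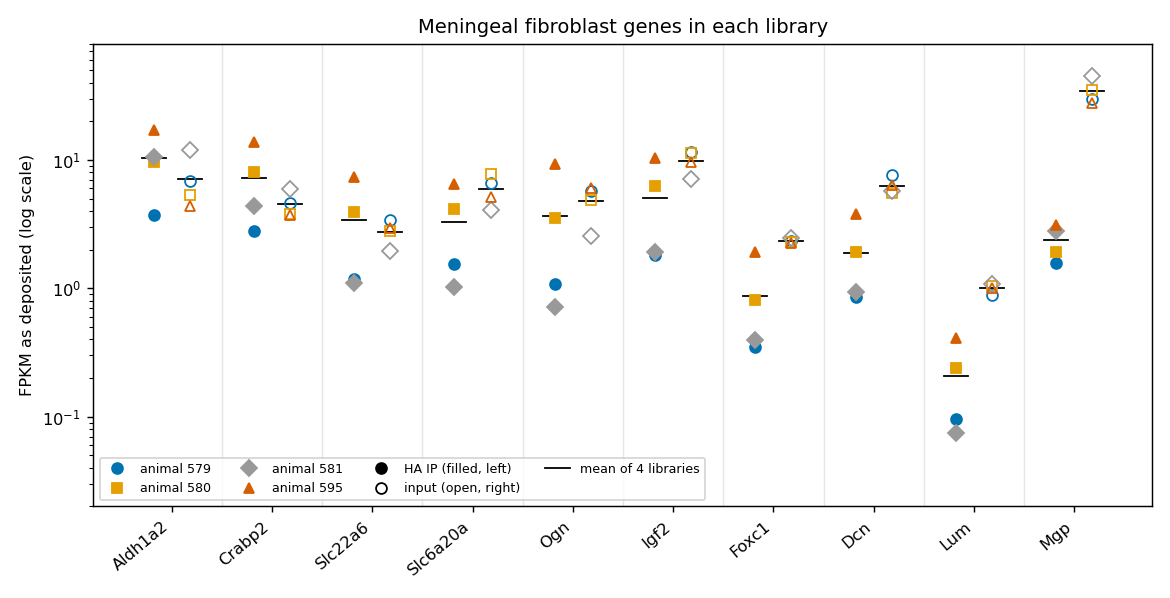
Deposited FPKM on a log axis of the 10 meningeal fibroblast genes in each library, with HA IP as filled symbols on the left of each pair, input as open symbols on the right, 1 symbol shape per animal and a line at the mean of 4 libraries. HA IP of animal 595 is the highest filled symbol in all 10 genes (17.2 FPKM for Aldh1a2, 3.13 FPKM for Mgp), and Mgp is the gene with the widest gap between the groups.

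The differences within single animals show the same pattern. The median log2 ratio of HA IP to input over the 10 meningeal genes was -1.57 in animal 579, 0.01 in animal 580, -1.09 in animal 581 and 0.997 in animal 595. HA IP exceeded input, after TMM scaling, for 2 of the 10 genes in animal 579, 5 in animal 580, 2 in animal 581 and 8 in animal 595. For the 42 collagens the medians were closer together, at -0.66, -0.52, -0.79 and -0.17 in the same order. Without animal 595, limma called 1 meningeal gene higher and 6 lower. Those called lower then included Foxc1 (-1.29), Igf2 (-0.92) and Slc6a20a (-0.78).

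**Figure D2:**
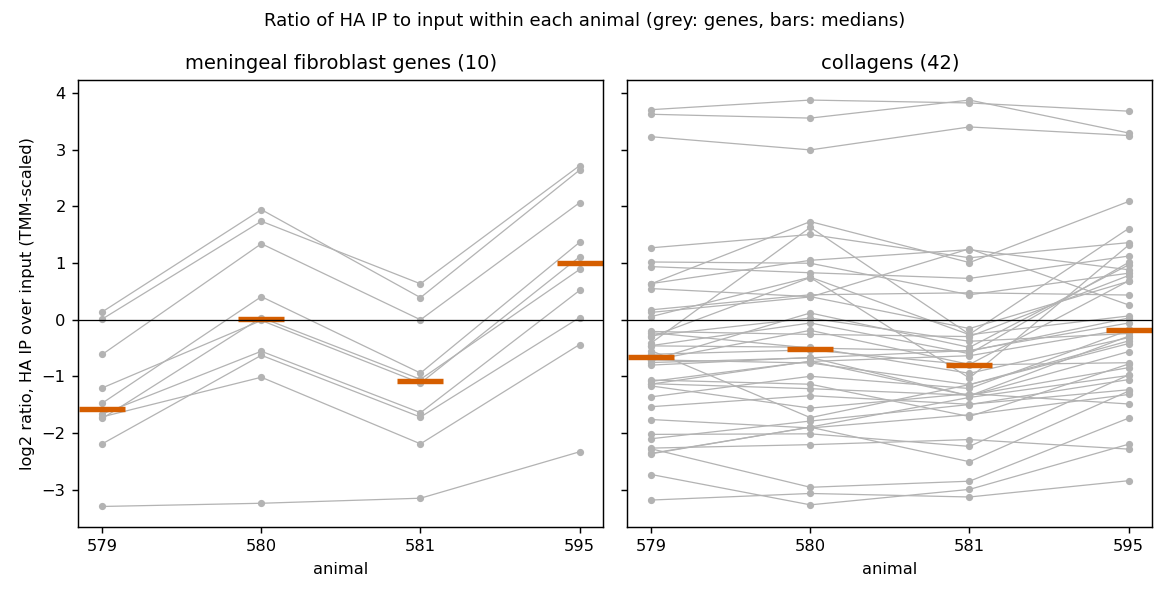
Log2 ratio of HA IP to input within each animal after TMM scaling, for the meningeal fibroblast genes (left) and the tested collagens (right), with 1 grey line per gene and a bar at the median. The median of the meningeal genes ranges from -1.57 in animal 579 to 0.997 in animal 595, and that of the collagens from -0.79 in animal 581 to -0.17 in animal 595.

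Among the 42 tested collagens, 9 were called higher in HA IP, 22 were called lower and 11 did not pass. That is 73.8% called, against 85.3% of all genes, with a median log2 fold change of -0.53. On the deposited scale 4 were called higher (Col9a3, Col11a2, Col16a1 and Col9a1) and 28 lower, and all 22 called lower after TMM scaling were among the 28. The other 6 were Col1a1 (-0.84), Col3a1 (-0.997), Col5a2 (-0.66), Col22a1 (-0.47), Col17a1 (-0.38) and Col7a1 (-0.64). HA IP and input did not overlap for 4 collagens higher and 24 lower, against 22.0% and 59.0% of all genes. The rises lay in 4 classes and the falls in all 8. Of all genes tested 43.0% were called higher and 42.3% lower, and 24.3% and 62.8% on the deposited scale. The counts by class below stand beside these shares.

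Fibrillar chains were split, with 2 of 11 higher, 4 lower and 5 not passed. Col11a2, a chain of collagen XI of cartilage fibres, had 19.7, 14.3, 16.3 and 12.4 FPKM in HA IP, against 2.81, 2.13, 1.84 and 2.06 FPKM in input. Every HA IP library was far above every input library, with a log2 fold change of 3.59 (SE 0.11, adjusted p = 5.2e-08). Col1a2, a chain of collagen I of skin and bone, had 5.37, 10.5, 6.78 and 10.9 FPKM in HA IP, against 6.31, 5.77, 5.88 and 4.31 FPKM in input. The groups overlapped through animal 579, and the log2 fold change of 1.36 (SE 0.22, adjusted p = 0.00071) was 0.54 on the deposited scale (adjusted p = 0.069). Col1a1, the partner of Col1a2 in collagen I, averaged 2.30 ± 0.717 FPKM in HA IP, against 4.38 ± 2.12 FPKM in input (SD, n = 4 each), with a log2 fold change of -0.03 (SE 0.26, adjusted p = 0.92).

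The minor fibrillar chains are known to set fibre width and start. Col5a3 had 0.135, 0.12, 0.669 and 0.182 FPKM in HA IP, against 0.215, 0.136, 0.418 and 0.239 FPKM in input. Animal 581 was highest in both groups, and the log2 fold change of 0.51 did not pass (SE 0.21, adjusted p = 0.052). Col5a2 had 0.230, 0.155, 0.383 and 0.595 FPKM in HA IP, against 0.509, 0.370, 0.862 and 0.540 FPKM in input. Col3a1, of the fine fibres of soft tissue, had 0.290, 0.548, 1.14 and 0.686 FPKM in HA IP, against 0.963, 1.18, 3.57 and 0.683 FPKM in input. Both had overlapping groups, with log2 fold changes of 0.0027 for Col5a2 (SE 0.21) and -0.25 for Col3a1 (SE 0.25), and neither passed. Without animal 595 Col3a1 was called lower, at -0.57 (adjusted p = 0.021 in limma). On the deposited scale both were called lower, Col5a2 at -0.66 (adjusted p = 0.021) and Col3a1 at -0.997 (adjusted p = 0.0092). The 4 fibrillar chains called lower were Col11a1, Col24a1, Col27a1 and Col5a1, at -0.51 to -1.13, of which Col27a1 (adjusted p = 0.019) had the highest adjusted p; with voom, a fit to the recovered fragments without that pseudocount, Col24a1 was at -2.06. Col2a1, the main collagen of cartilage, was low in both groups, at 0.0588 ± 0.0337 FPKM in HA IP, against 0.0475 ± 0.0180 FPKM in input (SD, n = 4 each), and did not pass.

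FACIT collagens held the largest rise and some of the largest falls (3 higher, 4 lower of 9). Col9a3, a chain of collagen IX, had 20.6, 20.5, 21.0 and 19.2 FPKM in HA IP, against 2.78, 2.48, 2.49 and 2.45 FPKM in input. Its values were nearly equal within each group, and its log2 fold change of 3.77 (SE 0.07, adjusted p = 1.1e-08) was the largest of the collagens. Col16a1 had 14.8, 10.95, 19.4 and 14.2 FPKM in HA IP, against 2.78, 2.44, 3.11 and 2.44 FPKM in input. The groups stood well apart here too, with a log2 fold change of 3.22 (SE 0.09, adjusted p = 3.9e-08).

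Of the other collagen IX chains, Col9a1 rose less than Col9a3 did, and Col9a2 did not pass. Col9a1 had 0.215, 0.251, 0.209 and 0.265 FPKM in HA IP, against 0.0853, 0.0776, 0.102 and 0.0971 FPKM in input; the fitted change was 1.30 on the log2 scale (SE 0.14, adjusted p = 7.1e-05), and 2.20 with voom. Col9a2 had 1.78, 5.18, 1.81 and 6.98 FPKM in HA IP, against 4.40, 3.02, 3.85 and 3.84 FPKM in input. Animals 580 and 595 were above all input libraries and animals 579 and 581 below all of them, and the log2 fold change of 0.64 (SE 0.37, adjusted p = 0.14) did not pass. Among the 3 chains, Col9a2 alone had HA IP values on both sides of input.

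Col19a1 and Col12a1 had the largest fitted falls of the FACIT chains with the pseudocount of 0.1 FPKM. Col19a1, in mouse cortex known from interneurons, had 0.257, 0.174, 0.151 and 0.516 FPKM in HA IP, against 3.89, 4.27, 3.05 and 4.52 FPKM in input; the fitted change was -2.80 on the log2 scale (SE 0.19, adjusted p = 3.7e-06). Col12a1 had 0.115, 0.0774, 0.0630 and 0.218 FPKM in HA IP, against 1.54, 2.02, 1.63 and 1.55 FPKM in input; the fitted change was -2.46 on the log2 scale (SE 0.22, adjusted p = 2.2e-05). In both, all HA IP libraries lay below all input libraries, with animal 595 the highest of the HA IP libraries. Col14a1 (-1.40) and Col20a1 (-0.94) were also called lower. Col14a1 rests on 4 to 7 fragments in HA IP, against 73 to 106 in input, and with voom it was at -3.01, beside -3.08 for Col19a1 and -3.07 for Col12a1. Col22a1 (0.15, adjusted p = 0.47) did not pass.

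Collagen IV chains were split by pair. Col4a1 and Col4a2, the chains of nearly all basement membranes, were called lower at -0.55 (SE 0.12, adjusted p = 0.0032) and -0.76 (SE 0.13, adjusted p = 0.00076). Col4a1 averaged 2.44 ± 0.346 FPKM in HA IP, against 6.56 ± 1.53 FPKM in input, and Col4a2 averaged 2.21 ± 0.514 FPKM in HA IP, against 6.76 ± 1.33 FPKM in input (SD, n = 4 each). Col4a5 and Col4a6, which form a collagen IV of a more restricted set of tissues, were called higher at 0.90 (adjusted p = 0.00049) and 0.82 (adjusted p = 0.0016). Col4a4 was called higher at 0.38 (adjusted p = 0.037), and was at 1.18 with voom. It rests on 12 to 20 fragments in HA IP, against 8 to 26 in input. All its FPKM values lay below the pseudocount, and its groups overlapped. On the deposited scale Col4a4, Col4a5 and Col4a6 did not pass (0.11 to 0.25), while Col4a1 (-1.37) and Col4a2 (-1.58) were called lower. Col4a3 had 0.00527 to 0.0276 FPKM in HA IP, against 0.0264 to 0.0411 FPKM in input and was not tested.

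All 5 tested collagen VI chains were called lower. Col6a1 had 1.01, 1.06, 1.29 and 2.32 FPKM in HA IP, against 7.96, 8.38, 11.2 and 7.97 FPKM in input. Col6a2 had 0.456, 0.621, 0.433 and 1.102 FPKM in HA IP, against 4.84, 4.66, 4.96 and 4.71 FPKM in input. No library of 1 group reached the other in either gene, and animal 595 was the highest in HA IP. The log2 fold change was -1.81 for Col6a1 (SE 0.20, adjusted p = 7.4e-05) and -2.01 for Col6a2 (SE 0.21, adjusted p = 4.9e-05). The other chains, Col6a3, Col6a4 and Col6a5, were at -0.78, -0.95 and -0.68, values that the pseudocount makes small; with voom they were at -1.76, -2.09 and -2.69. Col6a5 had 2 to 4 fragments in HA IP, against 24 to 59 in input. Col6a6, at most 0.00404 FPKM in HA IP, against 0.0510 FPKM in input, was not tested.

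The network collagens VIII and X, short chains of endothelial and cartilage matrix, were all called lower (3 of 3). Col8a1 had 0.0172, 0.0442, 0.0392 and 0.0695 FPKM in HA IP, against 0.666, 0.863, 0.747 and 1.09 FPKM in input; the fitted change was -2.22 on the log2 scale (SE 0.13, adjusted p = 2.1e-06). Col8a2 was at -1.61 and Col10a1 at -1.38. These genes rest on few fragments in HA IP: Col8a1 had 4, 10, 9 and 12 there, against 121, 156, 141 and 298 in input, and Col10a1 had 0 to 2 there, against 22 to 55 in input. Because most of their HA IP values lay below the pseudocount, the fitted fold changes understate the ratio of FPKM, and with voom Col8a1 was at -3.45 and Col10a1 at -3.65.

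Transmembrane collagens went in different directions (1 higher, 1 lower of 4). Col25a1, known in brain from neurons and from amyloid plaques, had 0.0787, 0.0789, 0.106 and 0.20 FPKM in HA IP, against 2.40, 2.22, 2.67 and 3.27 FPKM in input. It was the collagen with the largest fall, at -3.05 (SE 0.13, adjusted p = 3.5e-07), with groups far apart. Col23a1 had 3.44, 3.40, 3.80 and 4.09 FPKM in HA IP, against 4.02, 2.99, 2.77 and 3.75 FPKM in input. The groups overlapped on the deposited scale, where its log2 fold change was 0.13 (adjusted p = 0.33), and after TMM scaling it was 0.95 (SE 0.12, adjusted p = 0.00014). Col13a1, known from the neuromuscular junction, had 0.329, 0.726, 0.164 and 1.11 FPKM in HA IP, against 0.776, 0.751, 0.729 and 0.685 FPKM in input. Its input values were nearly equal while its HA IP values ran from far below them to above them, and the log2 fold change of 0.18 (SE 0.36, adjusted p = 0.65) did not pass.

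The multiplexins are basement membrane collagens with anti-angiogenic end fragments. Col18a1 had 0.118, 0.239, 0.189 and 0.474 FPKM in HA IP, against 0.348, 0.467, 0.575 and 0.338 FPKM in input. The groups overlapped through animal 595, and the log2 fold change of -0.03 (SE 0.27, adjusted p = 0.93) did not pass. Col15a1 was called lower at -1.65 (SE 0.23, adjusted p = 0.00029). Of the remaining chains, Col26a1 (-1.67) and Col28a1 (-1.17) were called lower. Col28a1 had 0 to 4 fragments in HA IP, against 24 to 52 in input, and was at -3.51 with voom. Col7a1, the anchoring fibril collagen, did not pass.

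**Figure D3:**
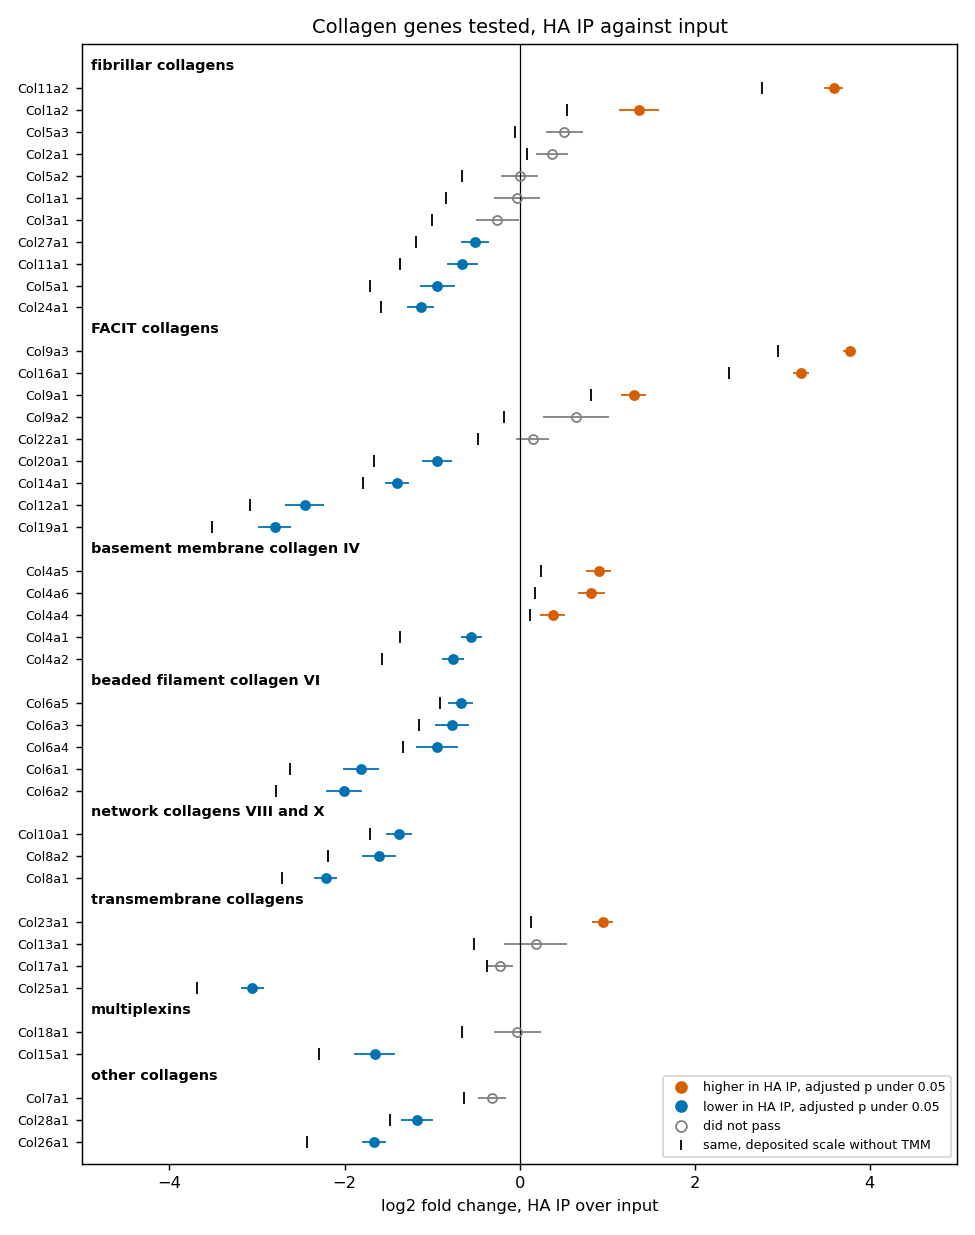
Log2 fold change of HA IP over input for the 42 tested collagens by class, with circles and SE bars after TMM scaling and a black tick for the value on the deposited scale; filled circles passed limma at an adjusted p under 0.05. Col9a3 (3.77), Col11a2 (3.59) and Col16a1 (3.22) stand to the right of all others, and all 5 collagen VI chains lie left of 0.

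Some neighbouring collagen genes moved alike and others did not (coordinates from RefSeq, GRCm38.p6). Col9a1 (chr1:24177589-24252738) and Col19a1 (chr1:24257683-24587922) lie 4944 bases apart, and the first rose by 1.30 while the second fell by 2.80. Col9a3 on chromosome 2 (3.77) and Col20a1 (-0.94) lie 361130 bases apart and also went in opposite directions. The pairs Col6a2 and Col6a1 on chromosome 10, Dcn and Lum on chromosome 10, Col4a1 and Col4a2 on chromosome 8, and Col4a6 and Col4a5 on chromosome X each had the same direction. Reads of overlapping genes can be split uncertainly where the counting did not use strand, which the sources used here do not state. This touches Col4a1 with Col4a2, Col4a3 with Col4a4, Col9a3 with Tcfl5, Ogn with Cenpp, Igf2 with Igf2os and Col10a1 with Nt5dc1, and further members overlap predicted genes.

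The spread among HA IP libraries was larger for the meningeal genes than for the collagens. The SD of log2 FPKM (TMM-scaled, pseudocount 0.1) had a median of 0.998 in HA IP and 0.307 in input over the 10 meningeal genes. For the collagens it was 0.342 in HA IP and 0.224 in input, and over all genes tested 0.203 in HA IP and 0.135 in input. The SD was larger in HA IP than in input for 10 of 10 meningeal genes and 31 of 42 collagens, against 72.5% of all genes. Without animal 595 the median SD in HA IP was 0.792 for the meningeal genes and 0.214 for the collagens.

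The ratio of the highest to the lowest HA IP library shows the size of this spread in FPKM. It was 12.8 for Ogn, 6.69 for Slc22a6, 6.33 for Slc6a20a, 5.72 for Igf2, 5.50 for Lum, 5.44 for Foxc1, 4.97 for Crabp2, 4.61 for Aldh1a2, 4.46 for Dcn and 1.98 for Mgp. In input the same ratio ran from 1.09 (Foxc1) to 2.75 (Aldh1a2). Among the collagens with the largest SD it was 6.77 for Col13a1, 5.58 for Col5a3, 4.03 for Col18a1, 3.93 for Col3a1, 3.92 for Col9a2 and 3.84 for Col5a2. Col9a3, by contrast, had a ratio of 1.09 in HA IP.

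Most of the meningeal genes shared 1 order of libraries. In 8 of the 10, HA IP of animal 595 was highest, animal 580 second and both others lower; the exceptions were Aldh1a2 and Mgp, in which animal 581 was second. The same order held for 13 of the 42 collagens, Col9a2 and Col13a1 among them, and for 8.80% of all genes tested. It also held for 4 of 10 microglia, 3 of 8 border macrophage, 3 of 12 endothelial and 2 of 7 tested ependymal and choroid plexus markers. Among mural markers it held for 2 of 12, among oligodendrocyte markers for 1 of 10 and among oligodendrocyte precursor markers for 1 of 8. For astrocyte markers it was 0 of 12, and for neuron markers 0 of 10. In input, animal 595 was highest for 1 of the 10 meningeal genes (Ogn). Summed over the 10 genes, HA IP had 14.996, 40.4, 24.0 and 73.8 FPKM, against 79.2, 79.7, 87.9 and 68.9 FPKM in input. Mgp alone made up 29.7, 35.0, 44.9 and 27.5 FPKM of the input sums. Of the HA IP sums it made up 1.58, 1.93, 2.81 and 3.13 FPKM. Since the 10 genes were named together as markers of 1 cell type, a shared order among them is a description of the list, with no test.

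**Figure D4:**
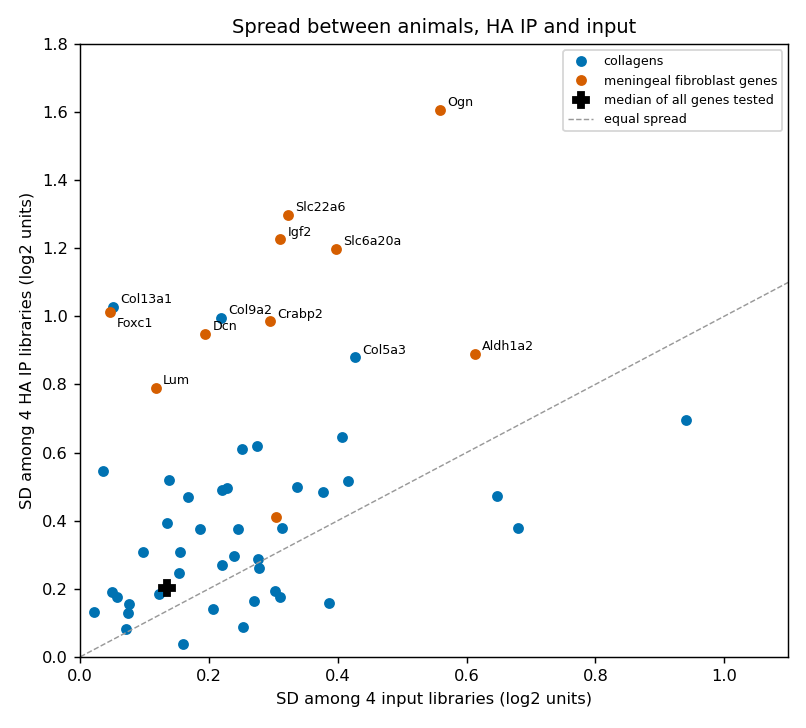
SD among the 4 HA IP libraries (vertical) against SD among the 4 input libraries (horizontal), in log2 units, for each tested collagen and meningeal fibroblast gene, with the median of all genes tested (0.203 in HA IP, 0.135 in input) and a dashed line of equal spread. All 10 meningeal genes lie above the line, with Ogn highest, and Col13a1 and Col9a2 lie among them.

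Other meningeal and fibroblast markers followed the same order of libraries. Of 29 such genes, 26 were highest in HA IP of animal 595, and 19 had animal 580 second with both others lower. Their median SD was 0.688 in HA IP and 0.195 in input. In the test, 13 were called higher and 7 lower (median log2 fold change 0.46), and on the deposited scale 10 were higher and 13 lower. Of all genes 43.0% were higher and 42.3% lower, and 24.3% and 62.8% on the deposited scale, and nothing particular to the list is read from these counts. By the naming rule, the largest rises were Fbln1 (3.16), Slc13a3 (3.10) and Fmo1 (2.89), and the largest falls Pdgfra (-2.68), Cemip (-2.54) and Slc47a1 (-2.34). Fbln1 encodes a matrix glycoprotein, and Pdgfra marks oligodendrocyte precursors as well as fibroblasts. A pair of further genes was chosen after their values were seen. Ptgds, the prostaglandin D2 synthase of the leptomeninges, had 1028, 3796, 1331 and 6187 FPKM in HA IP, against 1303, 1138, 866 and 964 FPKM in input. Slc13a4, a sulfate transporter, had 2.41, 6.64, 2.04 and 12.8 FPKM in HA IP, against 7.24, 5.65, 4.52 and 6.53 FPKM in input. In Ptgds every HA IP library but that of animal 579 was above all input libraries, in Slc13a4 that of animal 595 alone was, and the groups overlapped in both.

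Markers of other cells give the setting of these values. Their counts stand beside 43.0% of all genes called higher and 42.3% lower, and 24.3% and 62.8% on the deposited scale. Aldh1l1 itself averaged 406 ± 26.2 FPKM in HA IP, against 21.8 ± 0.926 FPKM in input (SD, n = 4 each), and all 12 astrocyte markers were called higher, with summed levels of 12978 to 13803 FPKM in HA IP, against 942 to 1019 FPKM in input. Their median SD was 0.143 in HA IP, and 2 of the 12 were highest in animal 595. Endothelial markers summed to 3.40 to 4.92 FPKM in HA IP, against 24.5 to 34.8 FPKM in input, with 11 of 12 called lower (12 on the deposited scale). Border macrophage markers summed to 0.594 to 1.53 FPKM in HA IP, against 6.29 to 9.05 FPKM in input, with 8 of 8 called lower. HA IP of animal 595 was highest for 6 of 12 endothelial, 5 of 10 microglia and 4 of 8 border macrophage markers. Shares were 5 of 8 for oligodendrocyte precursor, 4 of 10 for neuron and 3 of 10 for oligodendrocyte markers, against 31.3% of all genes. Median SD in HA IP was 0.472 for endothelial, 0.433 for border macrophage and 0.428 for mural markers, above the 0.342 of collagens. It was lower, at 0.166 to 0.303, for microglia, neuron and both oligodendrocyte lineage lists.

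Mural markers (pericytes and smooth muscle) were mixed, with 2 of 12 called higher (Pdgfrb at 2.37 and Notch3 at 2.13) and 6 lower; on the deposited scale 2 were higher and 8 lower. Their summed level was 25.3, 43.7, 24.8 and 55.9 FPKM in HA IP, against 65.1, 58.9, 57.2 and 53.8 FPKM in input. Vtn, taken out after its values were seen, carried the differences between HA IP libraries: without it the sums were 15.9, 14.5, 16.9 and 17.0 FPKM in HA IP, against 33.5, 29.7, 33.0 and 29.0 FPKM in input. Of single mural genes, 5 of 12 were highest in animal 595 and 2 had the full order. Ependymal and choroid plexus markers summed to 34.6 to 46.0 FPKM in HA IP, against 7.21 to 11.99 FPKM in input, with 5 of 7 tested called higher and 2 lower (3 and 2 on the deposited scale). Without Rarres2, also chosen after its values were seen, they summed to 4.49 to 9.42 FPKM in HA IP, against 3.19 to 5.58 FPKM in input. Neuron markers summed to 160 to 183 FPKM in HA IP, against 2746 to 2920 FPKM in input. Microglia markers (10 of 10 called lower) summed to 27.7 to 35.8 FPKM in HA IP, against 193 to 203 FPKM in input, and oligodendrocyte markers (9 of 10 called lower, Cnp higher) to 77.8 to 93.6 FPKM in HA IP, against 190 to 265 FPKM in input. Without Cnp the oligodendrocyte markers summed to 14.8 to 16.5 FPKM in HA IP, against 168 to 236 FPKM in input. No listed marker was at 0 in all libraries of a group. The part of other cell types in the levels of the meningeal genes and collagens was not tested.

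The other genes of the collagen pathway are given by their step. Of 29 tested genes for collagen synthesis and crosslinking, 21 were called higher and 5 lower (median log2 fold change 1.19), and on the deposited scale 15 were higher and 9 lower. That is beside 43.0% of all genes higher and 42.3% lower, and 24.3% and 62.8% on the deposited scale. Sparc, a collagen-binding protein of astrocytes and endothelium, had 169, 243, 161 and 338 FPKM in HA IP, against 26.6, 28.1, 25.1 and 32.4 FPKM in input (log2 fold change 3.80, adjusted p = 7.9e-08). P4ha3, a subunit of the prolyl hydroxylase of collagen, was at 3.59, and Serpinh1 (HSP47), the collagen chaperone, at 3.37. The largest fitted falls were the procollagen proteases Tll1 (-2.25), Adamts3 (-2.11) and Tll2 (-1.66). Mean HA IP levels of Tll1 (0.0333 FPKM) and Tll2 (0.00774 FPKM) lay below the pseudocount of 0.1 FPKM. Their input means were 0.834 and 0.376 FPKM. The pseudocount thus understates both falls, and the order of the 3 depends on it. Colgalt1, also on the list, is not analysed here.

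Collagen receptors had 5 of 9 higher and 3 lower, or 4 and 4 on the deposited scale, against the same shares of all genes. The rises were led by Gpr56 (3.77), an adhesion receptor that binds collagen III, by the discoidin receptor Ddr1 (2.45) and by Itgb1 (2.11), the common beta chain of collagen-binding integrins. The 3 falls were the alpha chains Itga11 (-1.12), Itga10 (-1.08) and Itga1 (-0.96). Ddr1 averaged 12.5 ± 4.89 FPKM in HA IP, against 3.86 ± 0.892 FPKM in input (SD, n = 4 each).

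Of 13 enzymes and inhibitors of collagen breakdown, 5 were called higher and 7 lower on both scales. Nothing particular to either list is read from these counts. Mmp14, a membrane-bound collagenase, had 64.4, 52.4, 91.8 and 45.6 FPKM in HA IP, against 5.57, 4.25, 6.44 and 3.63 FPKM in input (log2 fold change 4.46, adjusted p = 9.1e-09). The metalloprotease inhibitors Timp4 (3.73) and Timp3 (3.14) were also among the rises. Mmp17 (-3.58), Fap (-2.48) and Mmp16 (-2.18) fell most. Fap is known from fibroblasts, and its groups did not overlap. Its mean in HA IP was 0.0804 FPKM, below the pseudocount, so its fall is understated.

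Among 11 other small leucine-rich proteoglycans, the family of Dcn, Lum and Ogn, 3 were called higher and 4 lower, or 2 and 6 on the deposited scale. Of all genes 43.0% were higher and 42.3% lower, and 24.3% and 62.8% on the deposited scale. Nothing particular to this list is read from its counts. The rises were Prelp (2.79), Optc (2.20) and Fmod (0.96), and the largest fitted falls Epyc (-2.23), Aspn (-1.27) and Podn (-1.05). Mean HA IP levels of Epyc (0.0385 FPKM) and Aspn (0.0123 FPKM) lay below the pseudocount, so both falls are understated. Fmod (fibromodulin) had 6.21, 19.5, 5.88 and 32.6 FPKM in HA IP, against 13.3, 12.04, 9.30 and 11.002 FPKM in input. It had the order of libraries of the meningeal genes, an adjusted p of 0.04997 in limma, just under the threshold, and a log2 fold change of 0.13 on the deposited scale (adjusted p = 0.78).

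**Figure D5:**
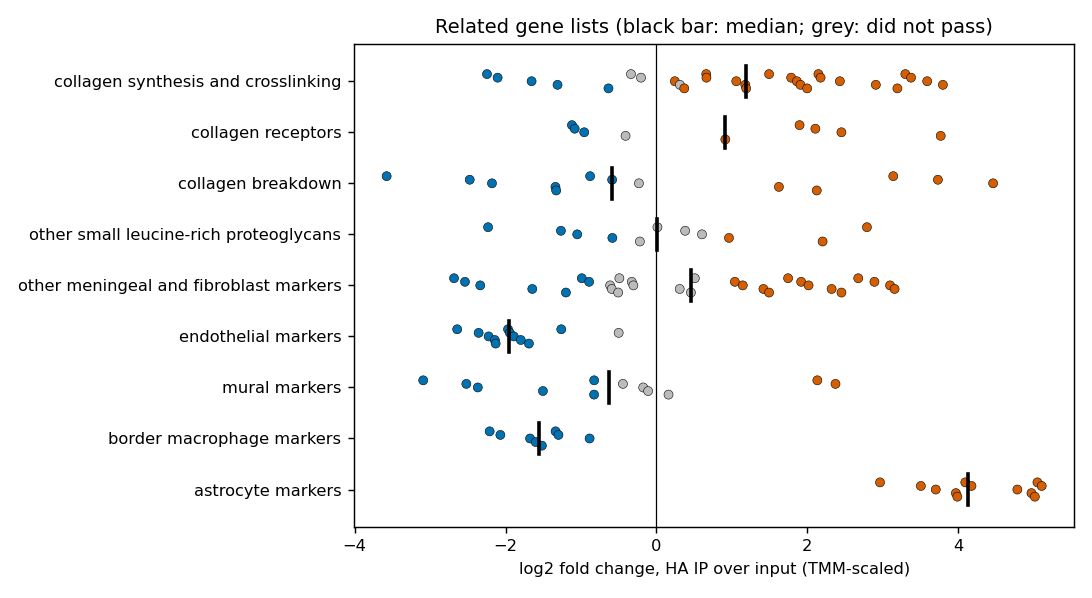
Log2 fold change of HA IP over input after TMM scaling for each tested gene of the related lists, 1 row per list, with orange points called higher, blue points called lower, grey points that did not pass and a black bar at the median. Synthesis genes lie mostly to the right (median 1.19), other meningeal markers on both sides (median 0.46), and astrocyte markers all to the right.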

How the data were processed

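Libraries were HA IP and input of 4 mice, paired by animal. Per the labels' protocols, paired-end stranded libraries were made after mRNA enrichment. Tools in the submitters' processing notes are bcl2fastq 2.17, STAR and HTSeq, with build mm10; the STAR version, HTSeq version, annotation and counting strand were not given in the sources used here. The file headers give the deposited values no unit. They were read as FPKM made by the authors, because a whole length for each gene and a whole total for each library turned all 142235 non-zero values into fragment numbers at most 0.000317 from whole, the lengths being chosen to that end. Library totals so recovered were 33834388 to 53625125 fragments.

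Genes with at least 0.246 CPM (10 fragments in a library of median size) in 4 libraries and 15 fragments in all were tested (15609 genes). FPKM were divided by TMM factors (own code, trims 0.3 and 0.05, unweighted), and log2(FPKM + 0.1) was fitted with limma 3.58.1 (R 4.3.3) with an intensity trend and the animal as a block; tests were two-sided and adjusted over all genes. The numbers mark 1 animal, and libraries of the same number deviated together (correlations 0.219 to 0.399, others at most 0.115). Recovery and fit were checked on simulated data. Values were named by a rule: all meningeal genes, the 6 collagens with the largest rises, falls and SD among HA IP libraries, and up to 3 rises and falls of each related list. Members and lists were chosen with earlier results of these data known. Alternatives were other pseudocounts, filters, scaling, voom, no block and leaving out each animal.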

Additional observations from a re-analysis of the deposited data

Results flagged for a closer look

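Single libraries stood apart for 6 collagens, in that the gap of the highest library to the next was most of the range of its group of 4. In HA IP this was Col5a3 in animal 581, at 0.669 FPKM against 0.12 to 0.182 FPKM in the other HA IP libraries. In input it was Col28a1 in animal 581 (0.335 FPKM), Col6a1 in animal 581 (11.2 FPKM), Col4a5 in animal 579 (0.356 FPKM), Col9a3 in animal 579 (2.78 FPKM) and Col6a4 in animal 580 (0.610 FPKM). Chance gives about 1 in 20 groups such a gap at either end, highest or lowest. Counted at either end, 7.81% of all genes tested had one in HA IP and 7.16% in input. The meningeal fibroblast genes had 0 such values; in most of them animals 580 and 595 were both high in HA IP.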

How the results depend on the processing

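Of the 36 members called, 27 had the same call in every alternative in which they were fitted, and the others were Aldh1a2, Crabp2, Dcn, Col1a2, Col23a1, Col27a1, Col4a4, Col4a5 and Col4a6. Of the 27, 4 (Col10a1, Col28a1, Col6a4 and Col6a5) did not pass the filter at 1 CPM, where 18 collagens were lower. With voom or a pseudocount of 0.01 the log2 fold change of 10 called members grew by over 1.5 times. With voom on recovered fragments, 12 collagens were higher and 22 lower, and 3 meningeal genes each way. On the deposited scale, without TMM scaling, 3791 genes were higher and 9796 lower (6717 and 6599 with it), 4 collagens were higher, and 0 meningeal genes were higher and 6 lower. Without the replicate block, 9 collagens were higher and 21 lower, 2 meningeal genes higher and 3 lower, and 6565 and 6431 of all genes; the pairing changed no member's call other than Col27a1. Leaving out 1 animal gave 8 to 10 collagens higher and 21 to 23 lower, 0 to 3 meningeal genes higher and 2 to 6 lower, 32 to 35 genes of the related lists higher and 19 to 22 lower, and 6391 to 6634 of all genes higher and 6230 to 6454 lower. The median SD in HA IP then ran from 0.214 to 0.363 for collagens and 0.792 to 1.19 for meningeal genes. With TMM scaling among HA IP libraries, chosen after seeing the data, 28 collagens and 10 meningeal genes were highest in animal 595; this count cannot be computed without that animal.

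Changes of sign came in members that had not passed. On the deposited scale they were Col13a1 (-0.53), Col22a1 (-0.47), Col5a2 (-0.66), Col5a3 (-0.055), Col9a2 (-0.17) and Slc22a6 (-0.11). Col5a2 was -0.015 with a pseudocount of 0.01, and Col18a1 was 0.0089 with a pseudocount of 1. With voom Col18a1 was 0.033 and Ogn 0.26. Leaving out 1 animal gave ranges across 0 for Col13a1 (-0.20 to 0.58), Col18a1 (-0.37 to 0.16), Col1a1 (-0.36 to 0.20), Col22a1 (-0.049 to 0.29), Col5a2 (-0.26 to 0.10) and Ogn (-0.67 to 0.28). The changes on the deposited scale follow the shift by TMM scaling, 0.84 before the pseudocount. The cause of the other changes was not tested. Fold changes of collagens and of related-list genes with values below the pseudocount are understated.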
